A study of Mus musculus with 12 samples.

Results

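The genes described here encode the proteins of the ribosome, in 2 classes: those of the cytosolic ribosome, named Rpl, Rplp, Rps and Rpsa, and those of the mitochondrial ribosome, named Mrpl and Mrps. They were chosen by name alone among the genes of the authors' deposited table of astrocytes against non-astrocytes, and the S6 kinases, whose names also begin with Rps, were left out. This gave 82 of the 4565 named genes, of which 70 were cytosolic and 12 mitochondrial, measured by 169 and 15 probe sets. The cytosolic genes comprised 39 with large-subunit and 31 with small-subunit names. One of the large-subunit names, Rpl32-ps, is a pseudogene and encodes no ribosomal protein. The RefSeq gene table holds 91 protein-coding mouse genes whose names match the cytosolic form and 78 that match the mitochondrial form. A ribosomal protein gene absent from the authors' table was not analysed here.

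The 12 arrays measured RNA of cells sorted from the spinal cord of mice at postnatal day 7, with 3 biological replicates in each of 4 groups. Dorsal astrocytes and ventral astrocytes were the GFP-positive cells of the dorsal and the ventral cord. Dorsal non-astrocytes and ventral non-astrocytes were the GFP-negative cells of the same regions. All mice, those of both sorts, carried the Aldh1l1-GFP transgene on a Swiss-Webster background, in which regulatory sequence of the astrocyte gene Aldh1l1 drives the green fluorescent protein. The non-astrocytes are thus a mixture of all cells without visible GFP, and the labels do not say how many animals went into a replicate.

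Values are log2 signals per probe set, on which a difference of 1 is a doubling, and the text gives each gene by its brightest probe set. The level of one gene is not set against that of another, since probe sets differ in how strongly they bind. Standard errors, p-values and adjusted p-values come from limma, fitted over 28467 probe sets with Benjamini-Hochberg adjustment, and a probe set was called at an adjusted p under 0.05. Marker genes were read beside the sort labels. Only a marker named in the authors' table, which lists genes that differ between the sorts, counts as measured here. A marker without a sort difference could thus not appear. The mean over 12 of 12 astrocyte markers was 10.94 to 11.21 on the astrocyte arrays and 7.06 to 7.53 on the non-astrocyte arrays. Markers of oligodendrocytes, 10 of 10 measured (8.44 to 9.06 on astrocyte arrays, against 10.77 to 11.35), of their precursors, 6 of 6 (7.65 to 8.09, against 9.20 to 9.62), of microglia, 11 of 11 (6.43 to 7.10, against 8.3 to 9.11) and of endothelial and mural cells, 7 of 10 (6.32 to 6.63, against 6.93 to 8.25) were higher on the non-astrocyte arrays. So were markers of red blood cells, 4 of 7 (7.16 to 8.01, against 9.70 to 9.99) and of cycling cells, 8 of 8 (5.98 to 6.74, against 7.42 to 7.85). Of 12 neuronal markers 5 were measured, at 7.70 to 8.61 on astrocyte arrays and 8.44 to 8.84 on non-astrocyte arrays, with Nefl and Nefm higher in astrocytes and the other 3 lower.

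The cytosolic ribosome translates nearly all messages of the cell, and its proteins are made in matched amounts together with ribosomal RNA. Many of their messages begin with a C followed by an unbroken run of pyrimidines, the terminal oligopyrimidine tract, through which the mTORC1 pathway and the RNA-binding protein Larp1 control their translation. The mitochondrial ribosome is a separate machine of bacterial ancestry, built from nuclear-encoded proteins imported into the organelle, and it makes core subunits of the respiratory chain.

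The following start-site windows show this feature where RefSeq annotates a start. Each gives 20 bases before the annotated first base and 10 from it on, 5′ to 3′ in the direction of transcription, from build GRCm38.p6. Capitals mark a C followed by at least 4 pyrimidines that begins within 3 bases of the first base.
Rps15a (chr7:118116138-118116167, minus strand): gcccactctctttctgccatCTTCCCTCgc
Rplp2 (chr7:141447631-141447660, plus strand): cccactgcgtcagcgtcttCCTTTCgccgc
Rps24 (chr14:24490658-24490687, plus strand): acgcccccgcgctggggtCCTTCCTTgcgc
Rps18 (chr17:33955656-33955685, minus strand): acttatacgtcacttccgCTCTCTCTTCCa
Rps6 (chr4:86857358-86857387, minus strand): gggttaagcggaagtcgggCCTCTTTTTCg
These 5 cytosolic genes were shown because the tract lies at the annotated start. The next 5 have no such tract beginning within 3 bases of the first base and are the genes on which the differences below turn, 2 of them cytosolic and 3 mitochondrial.
Rps26 (chr10:128626497-128626526, minus strand): agcgggtcgggcaagccgccggatcctctt
Rpl10 (chrX:74270796-74270825, plus strand): ctatggttgttacagtggaagataggccgc
Mrps6 (chr16:92058316-92058345, plus strand): cacggtgctttcgccgtccgggagctgacc
Mrps7 (chr11:115604120-115604149, plus strand): cgcgctgtgggcagccctccgaggtcctga
Mrps36 (chr13:100744650-100744679, minus strand): gtcccttatagctcctcagtgacatcacac

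RefSeq gave a start for 53 of the 70 cytosolic genes, and 22 of those 53 (41.5%) had the tract. Among the mitochondrial genes 1 of 9 with a start had it (11.1%), Mrpl37, a protein of the large subunit found only in mitochondrial ribosomes. The tract was found in 3651 of all 27025 genes with a promoter entry (13.5%). The letters CCGGAA, the core bound by ETS-family factors such as GABP, were searched on both strands of the window from 250 bases before to 50 after the start. On the other strand they read TTCCGG, whose first letters can be shared with the end of a tract. They stood in 29 of the 53 cytosolic genes (54.7%), in 3 of the 9 mitochondrial genes (33.3%) and in 4503 of all genes of the table (16.7%). A match is a run of letters in the annotation and not a measured site, and an annotated start can differ from the start used in these cells. The cytosolic genes with the tract had a median astrocyte minus non-astrocyte difference of -0.56, and the 31 with a start but no tract one of -0.53.

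The listed cytosolic ribosomal protein genes were lower in astrocytes than in non-astrocytes and the listed mitochondrial ones, with 1 exception, were higher. Over the 70 cytosolic genes the median log2 difference was -0.54, a fold of 0.690, and single genes ranged from -0.90 to -0.37. Over the 12 mitochondrial genes the median was 0.41, a fold of 1.33, with 11 genes higher in astrocytes and 1 lower, Mrps7. The cytosolic median lay below the mitochondrial one by 0.95 (a difference of -0.95). Beside these, the median over all tested probe sets was -0.01 and that over all named genes was -0.38. Over the 1432 probe sets with a mean signal above 10 it was -0.24, and 70.1% of them were lower in astrocytes and 29.9% higher. The mean over the cytosolic genes was above 10 on every array and that over the mitochondrial genes below 10. The part of signal level in the class difference was not tested. Of the named genes 50.9% were lower in astrocytes and 49.1% higher. The median of the named genes lies near the edge of the fold range that the authors' table leaves out, and does not describe a common shift of those genes. Because the authors' table holds only probe sets with an adjusted p up to 0.15 and no linear fold between 0.78 and 1.28, a gene could enter only if it differed between the sorts. The contrast is therefore given as a description with no p-value for a gene, and a gene just short of these limits is not listed. The sizes of the class medians and of the gap between them also depend in part on these limits. By the fit all 70 cytosolic genes passed the threshold as lower in astrocytes, against 19.7% of all probe sets, and 11 mitochondrial genes passed as higher, against 16.5% of all probe sets. These counts follow from how the table was made and nothing is read from them. In bulk RNA, fewer cells of a type and less RNA per cell cannot be told apart, and the part of the non-astrocyte markers in these differences was not tested.

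Per array, the mean over the 70 cytosolic genes was 10.79, 10.47 and 10.48 in dorsal astrocytes, 10.64, 10.64 and 10.45 in ventral astrocytes, 11.09, 11.20 and 11.10 in dorsal non-astrocytes, and 11.08, 11.17 and 11.09 in ventral non-astrocytes. The highest astrocyte array lay 0.29 below the lowest non-astrocyte array. The mean over the 12 mitochondrial genes was 8.54, 8.47 and 8.45 in dorsal astrocytes, 8.51, 8.55 and 8.52 in ventral astrocytes, 8.13, 8.20 and 8.14 in dorsal non-astrocytes, and 8.10, 8.20 and 8.14 in ventral non-astrocytes. Here the lowest astrocyte array lay 0.25 above the highest non-astrocyte array. As means over arrays, the cytosolic genes stood at 10.58 ± 0.13 on astrocyte arrays and 11.12 ± 0.05 on non-astrocyte arrays, and the mitochondrial genes at 8.51 ± 0.04 on astrocyte arrays and 8.15 ± 0.04 on non-astrocyte arrays (SD, 6 arrays per sort). Without Mrps7, left out because it was the exception, the mitochondrial difference was 0.46, against 0.36 with it. Both values include Mrps36, whose difference was 0.60 and whose product is a component of another complex, as given below.

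**Figure D1:**
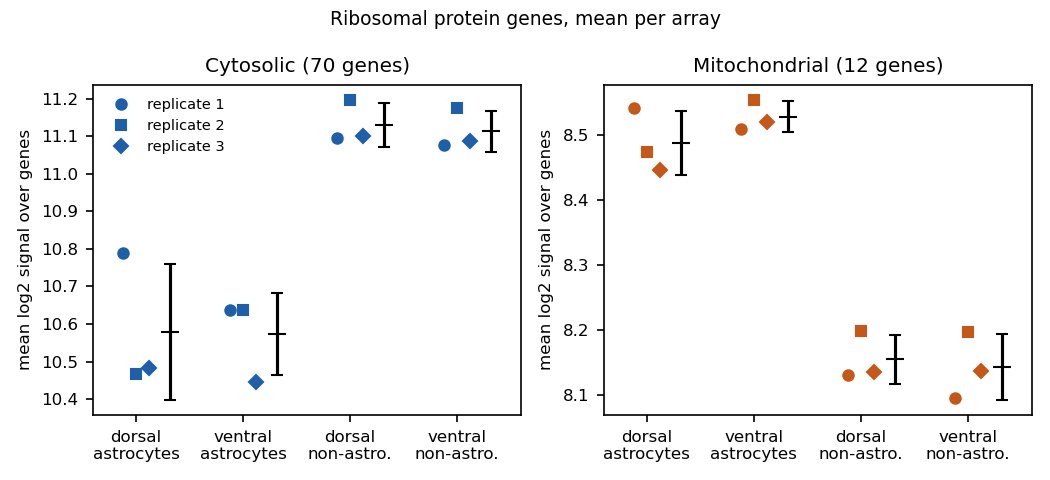
Mean log2 signal over the 70 cytosolic (left) and 12 mitochondrial (right) ribosomal protein genes on each array, by group, with the mean and SD of each group of 3 arrays as bars. The 6 astrocyte arrays lie below the 6 non-astrocyte arrays in the cytosolic class (10.58 against 11.12 on average) and above them in the mitochondrial class (8.51 against 8.15).

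The astrocyte arrays differed among themselves more in the cytosolic class than in the mitochondrial class, with SDs of 0.13 and 0.04. Dorsal astrocytes replicate 1 was the highest of the 6 astrocyte arrays for 51 of the 70 cytosolic genes and the lowest for none. The lowest array was ventral astrocytes replicate 3 for 25 genes, dorsal astrocytes replicate 2 for 22 and dorsal astrocytes replicate 3 for 16. In dorsal astrocytes replicate 1 the mean over the astrocyte markers was 10.94, the lowest of the astrocyte arrays, and those of the other lists were 9.0 for oligodendrocytes, near the top of their range on astrocyte arrays, 7.78 for their precursors, 6.45 for microglia, 6.32 for endothelial and mural cells, 7.70 for neurons, 7.59 for red blood cells and 6.50 for cycling cells. Their part in the position of this array was not tested. The median cytosolic difference was -0.59 without dorsal astrocytes replicate 1 and -0.49 without ventral astrocytes replicate 3. Among the non-astrocyte arrays, dorsal replicate 2 was the highest for 36 cytosolic genes and ventral replicate 2 for 26. In the mitochondrial class the highest astrocyte array was shared among 5 of the 6 arrays, and dorsal non-astrocytes replicate 2 was the highest non-astrocyte array for 6 of the 12 genes.

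The listed genes of each class differed, by their medians, in the same directions within each region. They were listed for differing between the sorts on these same arrays, so these directions follow largely from the listing. The median cytosolic difference was -0.53 in the dorsal and -0.53 in the ventral cord, and the median mitochondrial difference was 0.40 in the dorsal and 0.44 in the ventral cord. The within-region calls and the order of the arrays below come from the same arrays on which the table was made, so, like the calls over both regions, they follow from the listing and nothing is read from them. In the fit within regions 68 cytosolic genes passed as lower in dorsal astrocytes, against 13.8% of all probe sets, and 67 in ventral astrocytes, also against 13.8%, while 8 mitochondrial genes passed as higher in dorsal astrocytes, against 12.0%, and 9 in ventral astrocytes, against 12.2%. In the dorsal cord all 3 astrocyte arrays lay below all 3 non-astrocyte arrays for 69 of 70 cytosolic genes, as they did for 22.6% of all probe sets, and in the ventral cord for 69 of 70, against 20.3% of all probe sets. For the mitochondrial genes all 3 lay above for 9 of 12 in the dorsal cord, against 17.9% of all probe sets, and for 10 of 12 in the ventral cord, against 18.6%. Over both regions the 6 astrocyte arrays lay below the 6 non-astrocyte arrays for 67 of the 70 cytosolic genes, against 12.0% of all probe sets. The exceptions were Rplp1, Rpl22l1 and Rps27l. In the mitochondrial class the 6 astrocyte arrays lay above for 8 genes, against 10.3% of all probe sets, and below for Mrps7. The arrays overlapped for Mrpl4, Mrps15 and Mrps35.

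**Figure D2:**
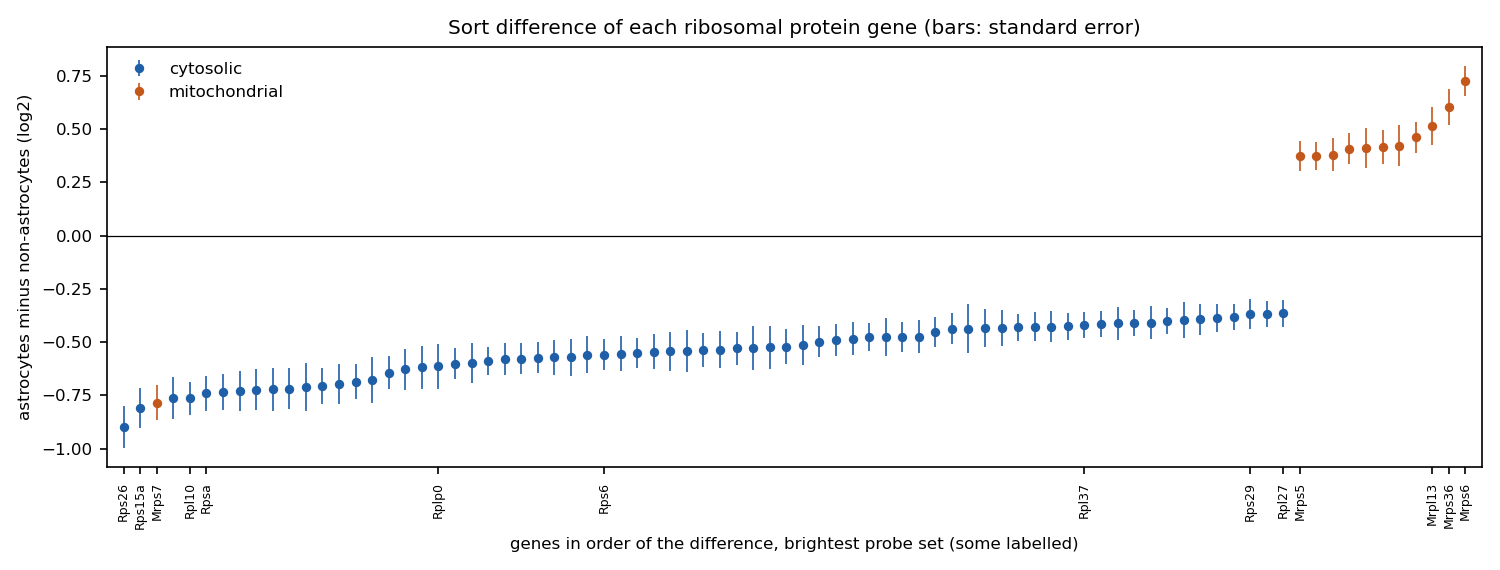
Astrocyte minus non-astrocyte difference (log2) of each of the 82 ribosomal protein genes, in order of the difference, with standard errors as bars and some genes labelled. The 70 cytosolic genes run from -0.90 to -0.37 and the mitochondrial genes from 0.37 to 0.73, except Mrps7 at -0.78, which lies among the lowest cytosolic genes.

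In the small subunit of the cytosolic ribosome the median difference was -0.58 over 31 genes. Rps26, whose protein lies at the exit of the mRNA channel and contacts the message upstream of the start codon, had the lowest difference of all members. Its signal was 11.07, 10.71 and 10.69 in dorsal astrocytes, 11.21, 10.68 and 10.72 in ventral astrocytes, 11.72, 11.81 and 11.72 in dorsal non-astrocytes, and 11.65, 11.81 and 11.76 in ventral non-astrocytes. Replicate 1 was the highest astrocyte array in each region and still lay below every non-astrocyte array. The difference was -0.90 with a standard error of 0.10, which is 1.86 times lower in astrocytes. Rps15a followed at -0.81 ± 0.09 (standard error), with means of 9.51 in astrocytes and 10.32 in non-astrocytes.

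Rpsa, a protein of the small subunit that was also described as a precursor of a laminin receptor, had signals of 11.12, 10.90 and 10.79 in dorsal astrocytes, 11.18, 11.19 and 10.77 in ventral astrocytes, 11.79, 11.75 and 11.74 in dorsal non-astrocytes, and 11.71, 11.72 and 11.69 in ventral non-astrocytes. The non-astrocyte arrays spanned 0.1 or less and the astrocyte arrays over 0.4, with no overlap, and the difference was -0.74 with a standard error of 0.08. Rps3, a protein at the mRNA entry site that also takes part in DNA repair, differed by -0.76 and Rps13 by -0.73. Rps6, the substrate from which the S6 kinases take their name, differed by -0.56, with astrocyte arrays at 11.60 ± 0.14 and non-astrocyte arrays at 12.16 ± 0.03 (SD, n = 6 each). Rps27a, which is made as a fusion with ubiquitin, differed by -0.60. The smallest differences of the small subunit were those of Rps29 and Rps4x, at -0.37 each.

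In the large subunit the median difference was -0.52 over 39 genes. Rpl10, a protein that joins the subunit late in its assembly and lies close to the peptidyl transferase centre, had the lowest difference of this subunit. Its signal was 10.96, 10.65 and 10.61 in dorsal astrocytes, 10.84, 10.68 and 10.502 in ventral astrocytes, 11.50, 11.53 and 11.44 in dorsal non-astrocytes, and 11.41, 11.48 and 11.48 in ventral non-astrocytes. The sorts did not overlap, and the difference was -0.76 with a standard error of 0.08. The gene is X-linked, as were Rpl39, Rpl36a and Rps4x, and these 4 ranged from -0.76 to -0.37. Rpl27 had the smallest difference of the subunit, at -0.37.

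The acidic stalk, which recruits elongation factors to the ribosome, is formed by the products of Rplp0, Rplp1 and Rplp2. Rplp0 had signals of 11.42, 11.27 and 11.02 in dorsal astrocytes, 11.52, 11.39 and 10.88 in ventral astrocytes, 11.87, 11.91 and 11.85 in dorsal non-astrocytes, and 11.77, 11.92 and 11.85 in ventral non-astrocytes. Replicate 3 was the lowest astrocyte array in each region, and the difference was -0.61 with a standard error of 0.10. Rplp2 differed by -0.72 and Rplp1 by -0.54, and for Rplp1 the highest astrocyte array (11.58, ventral replicate 1) reached just above the lowest non-astrocyte array (11.56, ventral replicate 1).

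Paralogues of ribosomal proteins differed in the same direction. Rpl22l1, a paralogue that can replace Rpl22 in the ribosome, differed by -0.52 and Rpl22 itself by -0.55. Rps27l, the p53-inducible paralogue of Rps27, differed by -0.44. Rpl22l1 and Rps27l are 2 of the 3 cytosolic genes whose arrays overlapped: for Rps27l the astrocyte arrays ranged from 8.67 to 9.37 and the non-astrocyte arrays from 9.26 to 9.70. The pseudogene Rpl32-ps differed by -0.40 at a low signal, 6.50 ± 0.16 on astrocyte arrays and 6.90 ± 0.06 on non-astrocyte arrays (SD, 6 arrays per sort).

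Most mitochondrial members were higher in astrocytes, in both subunits: the 5 large-subunit genes had a median difference of 0.41 and the 7 small-subunit genes one of 0.42. Mrps6, the counterpart of bacterial S6, had the highest difference. Its signal was 8.71, 8.42 and 8.63 in dorsal astrocytes, 8.92, 8.85 and 8.74 in ventral astrocytes, 7.89, 7.92 and 8.09 in dorsal non-astrocytes, and 8.05, 8.04 and 7.93 in ventral non-astrocytes. All astrocyte arrays lay above all non-astrocyte arrays, and the difference was 0.73 with a standard error of 0.07, a fold of 1.65. Mrpl13, the counterpart of bacterial L13, had signals of 8.86, 8.62 and 8.64 in dorsal astrocytes, 8.35, 8.63 and 8.87 in ventral astrocytes, 8.29, 8.16 and 8.22 in dorsal non-astrocytes, and 8.0, 8.03 and 8.20 in ventral non-astrocytes. The ventral astrocyte arrays of this gene spread over a wider range than those of the other groups, and the difference was 0.51 with a standard error of 0.09.

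Mrps36 is a special case among the names, since its product is now known as a component of the 2-oxoglutarate dehydrogenase complex of the citric acid cycle. It had signals of 7.85, 7.67 and 7.77 in dorsal astrocytes, 7.28, 7.55 and 7.73 in ventral astrocytes, 6.91, 6.79 and 7.03 in dorsal non-astrocytes, and 7.24, 7.23 and 7.03 in ventral non-astrocytes. The gap between the sorts was wide in the dorsal cord and narrow in the ventral cord, where the lowest astrocyte array stood close to the non-astrocyte arrays. The difference was 0.60 with a standard error of 0.08, and 0.85 in the dorsal and 0.36 in the ventral cord. Of the remaining genes Mrpl51, Mrps35, Mrpl37, Mrps15, Mrpl16, Mrpl4, Mrps14 and Mrps5 differed by 0.37 to 0.46. Mrpl51, Mrpl37 and Mrps35 encode proteins with no bacterial counterpart, and Mrpl4, Mrpl16, Mrps5, Mrps14 and Mrps15 the counterparts of bacterial proteins of the same numbers.

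Mrps7 was the only mitochondrial member lower in astrocytes. It encodes the counterpart of bacterial S7, a protein of the head of the small subunit that binds ribosomal RNA early in assembly. Its signal was 8.05, 8.22 and 8.09 in dorsal astrocytes, 8.22, 8.47 and 7.96 in ventral astrocytes, 8.99, 9.04 and 8.97 in dorsal non-astrocytes, and 8.85, 8.99 and 8.87 in ventral non-astrocytes. Each astrocyte array lay below each non-astrocyte array, and the difference was -0.78 with a standard error of 0.08, -0.88 in the dorsal and -0.69 in the ventral cord. The gene was measured by a single listed probe set.

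**Figure D3:**
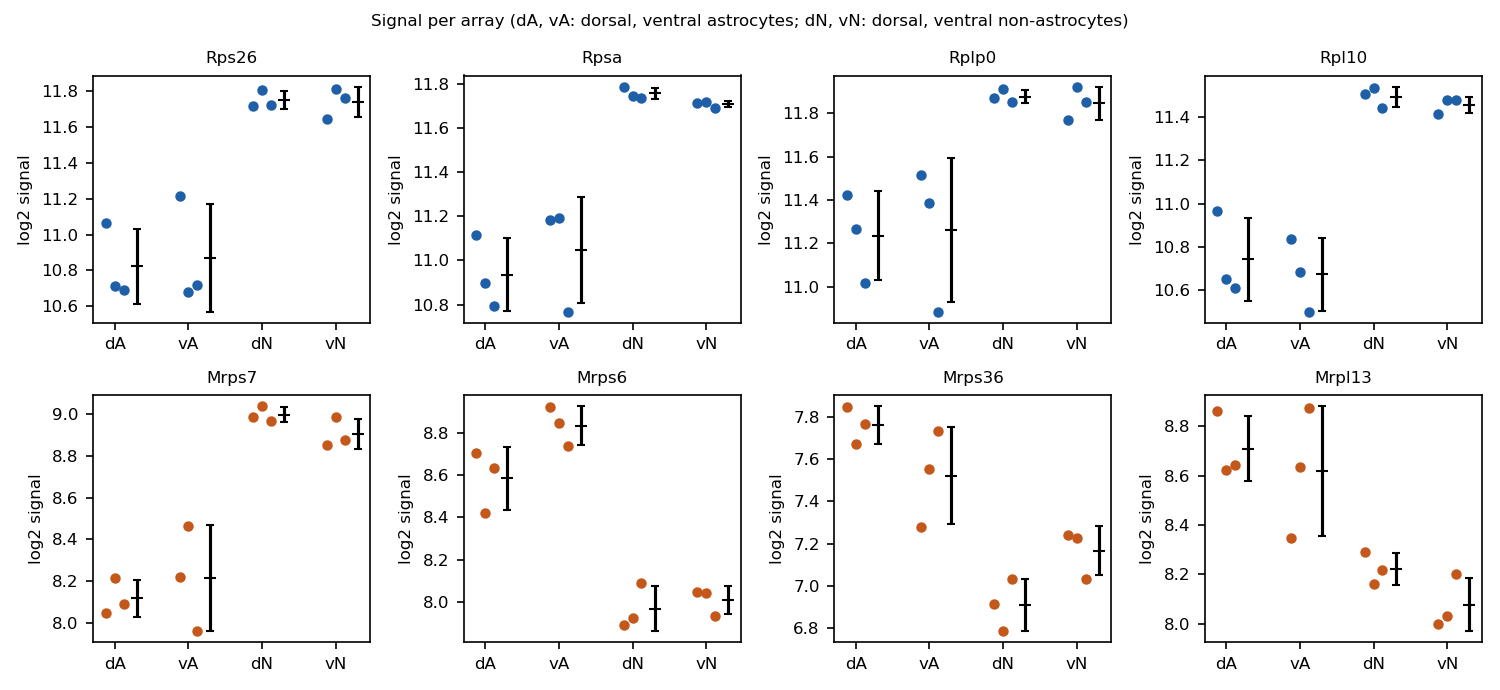
Log2 signal of 4 cytosolic (top) and 4 mitochondrial (bottom) genes on each array, with the mean and SD of each group of 3 arrays as bars. Rps26, Rpsa, Rplp0, Rpl10 and Mrps7 are lower on every astrocyte array than on every non-astrocyte array, and Mrps6, Mrps36 and Mrpl13 are higher.

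Many cytosolic genes had several listed probe sets, and their differences are given here as a description. The 40 cytosolic genes with 2 or more listed probe sets had 139 in all, up to 6 for Rpl15, Rpl30, Rpl35a, Rps12, Rps18 and Rps6. The median range of the difference within a gene was 0.07, and 32 of the 40 genes stayed within a range of 0.1. In 39 of the 40 genes all probe sets were lower in astrocytes. These probe sets were also listed because they differed between the sorts, so a probe set without a difference would not be seen. The files do not say what distinguishes them, and probe sets of one name may bind copies: cytosolic ribosomal protein genes have many processed pseudogenes of nearly the same sequence, so the share of each copy in a signal is uncertain.

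Among the genes with several probe sets, the ranges were 0.02 or less for Rpl14, Rpl15, Rpl24, Rpl34, Rpl35, Rpl38, Rps13 and Rps23. Those above that and under 0.1 included Rpl10, Rpl10a, Rpl12, Rpl13, Rpl17, Rpl19, Rpl28, Rpl35a, Rpl36, Rpl36a, Rpsa, Rps10, Rps14, Rps16, Rps18, Rps19, Rps2, Rps27a, Rps28, Rps3a1, Rps4x and Rps6. The 8 genes above 0.1 were Rps25, Rplp0, Rpl27a, Rps24, Rplp1, Rps21, Rpl30 and Rps12. In Rplp0 the differences ran from -1.0 for the dimmest probe set to -0.61 for the brightest, and in Rpl27a from -0.71 to -0.41.

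Rps25 was the gene whose probe sets disagreed in direction. Its 2 bright probe sets, at means of 10.25 and 10.27 in astrocytes and 10.85 and 10.94 in non-astrocytes, differed by -0.60 and -0.68. A dim one was higher in astrocytes, by 0.43 with a standard error of 0.06. Its signal was 7.28, 7.17 and 7.05 in dorsal astrocytes, 6.95, 6.92 and 6.99 in ventral astrocytes, 6.53, 6.75 and 6.64 in dorsal non-astrocytes, and 6.55, 6.63 and 6.67 in ventral non-astrocytes, with no overlap. Of the 169 cytosolic probe sets it was the only one higher in astrocytes. The 3 mitochondrial genes with 2 probe sets each, Mrpl51, Mrps36 and Mrps5, had differences within 0.04 of each other in each gene.

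**Figure D4:**
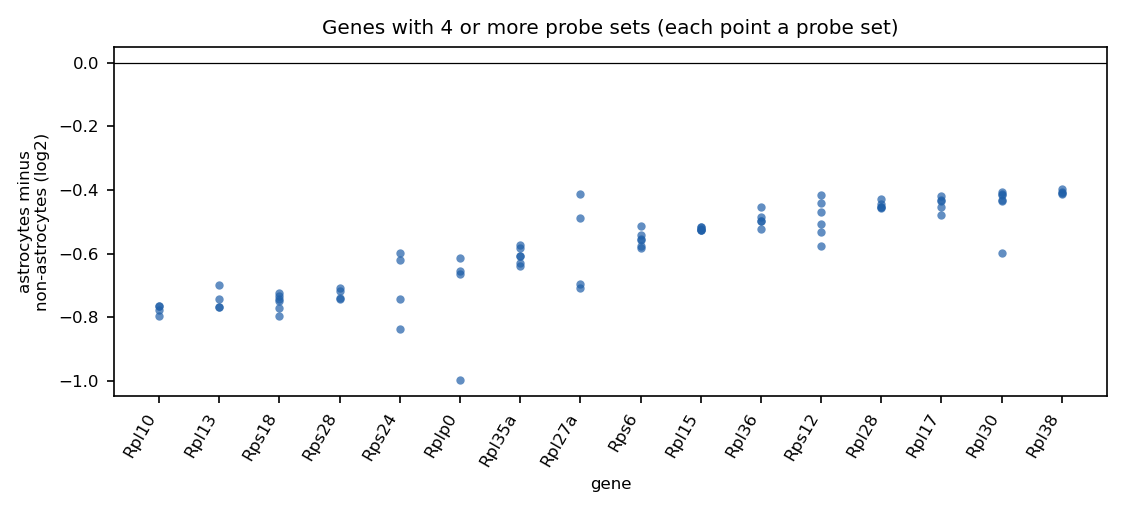
Astrocyte minus non-astrocyte difference (log2) of each probe set of 16 cytosolic genes with 4 or more listed probe sets, each point a probe set and genes in order of their median. The points of most genes lie close together and all are below 0, while those of Rplp0 run from -1.0 to -0.61.

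Dorsal and ventral cells were then compared within each sort, a contrast on which the members had not been listed. No ribosomal protein gene was called in dorsal against ventral astrocytes by limma, against 0.341% of all probe sets, and 4 had an unadjusted p under 0.05, where 10.4% of all probe sets did. No gene was called in dorsal against ventral non-astrocytes, against 0.0492% of all probe sets, and 1 had an unadjusted p under 0.05, against 5.25%. With the replicate number as a block, since these non-astrocyte groups pair by number, 0 of all 28467 probe sets were called there. The calls of that fit therefore say nothing about the members in particular. No gene was called for the interaction of region and sort, which asks whether the regional difference is unequal in the sorts, against 0.0632% of all probe sets, and 3 had an unadjusted p under 0.05, against 7.23%. The lowest adjusted p over the members was 0.33, 0.90 and 0.52 in these comparisons, in the order given.

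In astrocytes the regional difference, dorsal minus ventral, had a median of -0.01 over the cytosolic genes, 34 of them higher and 36 lower, within a range of -0.19 to 0.25. Over the mitochondrial genes the median was -0.05 and the range -0.28 to 0.24. The standard errors of single genes in this comparison were 0.09 to 0.16. Even the largest differences, -0.28 and 0.25, were not called. With 3 arrays per group, regional differences well above a standard error could thus go uncalled, and their absence is not shown. In non-astrocytes the medians were 0.02 in both classes, within ranges of -0.14 to 0.18 for the cytosolic and -0.25 to 0.26 for the mitochondrial genes.

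The pseudogene Rpl32-ps had the lowest p in astrocytes, with signals of 6.64, 6.50 and 6.72 in dorsal and 6.37, 6.42 and 6.32 in ventral astrocytes. The dorsal arrays all lay above the ventral ones, and the difference was 0.25 with a standard error of 0.09 (limma adjusted p = 0.33). Rpl37, a protein of the large subunit, stood at 11.52, 11.25 and 11.37 in dorsal and 11.15, 11.15 and 11.18 in ventral astrocytes, also without overlap, a difference of 0.22 (limma adjusted p = 0.39). In the opposite direction Mrpl16 stood at 8.34, 8.23 and 8.21 in dorsal and 8.59, 8.63 and 8.41 in ventral astrocytes, a difference of -0.28 (limma adjusted p = 0.36). Mrps6 differed by -0.25 (limma adjusted p = 0.40). None of these passed the threshold.

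Mrps15 had the lowest p in non-astrocytes, with signals of 8.39, 8.46 and 8.31 in dorsal and 7.95, 8.22 and 8.21 in ventral non-astrocytes, a difference of 0.26 with a standard error of 0.11 (limma adjusted p = 0.90). Mrps36 differed there by -0.25 and Mrpl4 by -0.16, neither called. For the interaction the genes of lowest p were all mitochondrial by name. In Mrps36 the dorsal minus ventral difference was 0.24 in astrocytes and -0.25 in non-astrocytes, an interaction of 0.49 with a standard error of 0.17 (limma adjusted p = 0.52). Its other probe set gave an interaction in the same direction (limma adjusted p = 0.47). For Mrps15 the interaction was -0.38 and for Mrpl16 it was -0.34, which did not pass the threshold either.

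**Figure D5:**
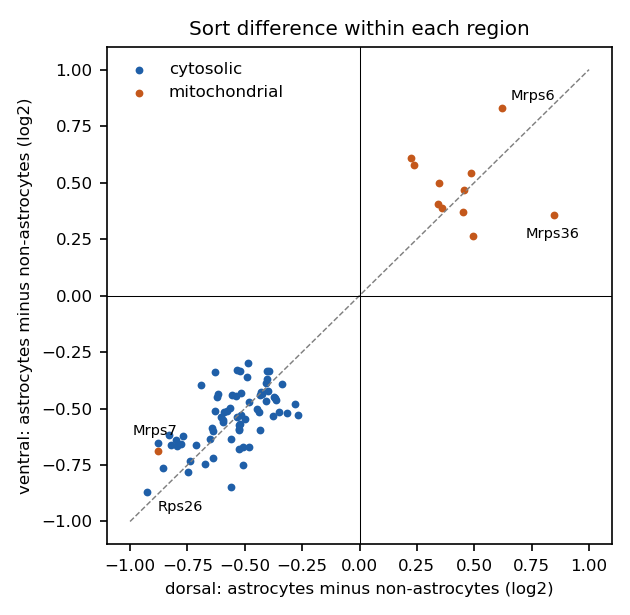
Astrocyte minus non-astrocyte difference (log2) of each ribosomal protein gene in the dorsal cord (horizontal axis) and in the ventral cord (vertical axis), with the line of equal difference dashed. The 70 cytosolic genes lie together in the lower left, Mrps7 among them, the other mitochondrial genes lie in the upper right, and Mrps36 lies farthest from the line, at 0.85 dorsal and 0.36 ventral.

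The genes that build and serve the ribosomes were read in the same way from lists of known members. Only genes of the authors' table have names, so a list gene counts as measured only if listed there for differing between the sorts. Nothing is read from how many genes of a list were lower or higher. The medians of the lists stand beside -0.01 over all probe sets and -0.38 over all named genes. Of the named genes 50.9% were lower in astrocytes and 49.1% higher. Of 66 genes of ribosome biogenesis 21 were measured, and all 21 were lower in astrocytes, with a median difference of -0.56. The lowest were Gnl3, the nucleolar GTPase nucleostemin (-1.01), Nop58, a core protein of the small nucleolar ribonucleoproteins that guide methylation of ribosomal RNA (-0.99), and Ltv1, an assembly factor of the small subunit (-0.84). Of 20 cytosolic elongation and termination factors and proteins linked to them 13 were measured, 12 lower and 1 higher, with a median of -0.54. Etf1, the release factor, differed by -0.80, Eef1e1, a scaffold protein of the aminoacyl-tRNA synthetase complex, by -0.75, and Rack1, a scaffold on the small subunit, by -0.72. The gene higher in astrocytes was Eef2k, the kinase that inhibits elongation factor 2, at 7.62 ± 0.16 on astrocyte arrays and 6.98 ± 0.17 on non-astrocyte arrays (SD, 6 arrays per sort), a difference of 0.64.

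Of 49 genes of mitochondrial translation and ribosome assembly 7 were measured, and all 7 were higher in astrocytes, with a median of 0.59. They were led by Gfm2, which recycles mitochondrial ribosomes (0.87), and the mitochondrial aminoacyl-tRNA synthetases Fars2 (0.63) and Iars2 (0.61), and they included Tufm, the mitochondrial elongation factor Tu (0.47). Of 25 genes of the mTORC1 and S6 kinase arm and the Myc family 5 were measured, all lower, with a median of -0.62. They were the kinase genes Rps6ka1, Rps6ka2 and Rps6ka5 and the genes Myc and Mycl. No component of mTORC1, nor Rps6kb1, Rps6kb2, Eif4ebp1 or Larp1, was among them. The values thus do not describe the mTORC1 pathway itself. Mycl, a transcription factor of the Myc family, differed by -0.72, Myc by -0.67 and the nuclear kinase Rps6ka5 by -0.62. No measured gene of these 4 lists was called between dorsal and ventral cells of either sort or for the interaction. Of all probe sets 0.341% were called in astrocytes, 0.0492% in non-astrocytes and 0.0632% for the interaction, so nothing is read from this. At an unadjusted p under 0.05 there were 2 of the 21 genes of biogenesis in astrocytes, where 10.4% of all probe sets had one, 1 of the 5 of the mTORC1 list in non-astrocytes, against 5.25%, and 1 of the 7 of mitochondrial translation for the interaction, against 7.23%.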

How the data were processed

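RNA was amplified and biotin labelled, per the labels' protocols. The submitters' processing notes name the tools oligo, RMA and limma without versions, and give neither their order nor a genome build. The authors' series table holds, as deposited, log2 signals from RMA for each probe set. The authors' deposited table of astrocytes against non-astrocytes has 5158 entries and adds gene names, the linear fold ratio, the t statistic (a score), p-values and adjusted p-values.

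Names were passed to the 35556 probe sets of the series table wherever all 12 array values were equal to 6 decimals; each entry found its probe set, 5106 were named, and 3 with conflicting names were not. After collapsing 476 identical copies and leaving out the leading block of 6613 consecutively numbered, unnamed probe sets, 28467 were fitted with limma 3.58.1 in R 4.3.3: one mean per group, all 12 arrays, empirical Bayes with 8 residual and 4.6 prior degrees of freedom, two-sided, checked on simulated data. Array medians were 6.57 to 6.62, and no 2 arrays were identical. The number of arrays limits the precision. Member names were updated through RefSeq (81 matched as symbols and 1, Rps3a, as a synonym of Rps3a1).

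Named in the text are the 6 genes of largest difference per class and direction, those with 2 or more probe sets, the 3 of lowest p per regional contrast, the stalk genes, Rpsa, paralogues, and up to 3 genes per list and direction; others were picked from their values, and some genes that the rule names are not reported here. The members, lists and tests were chosen with earlier results of these data known. Replicate numbers paired the arrays of dorsal and ventral non-astrocytes, where the deviations from group means of same-numbered arrays correlated at 0.15 to 0.21 and those of other arrays at -0.14 to -0.04. Alternatives were other centrings and filters, array weights, a variance trend, averaged probe sets, the replicate block and leaving out each array. RefSeq starts are those of build GRCm38.p6.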

Additional observations from a re-analysis of the deposited data

How the results depend on the processing

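Over 20 alternatives, including each array left out, the median difference between astrocytes and non-astrocytes stayed between -0.59 and -0.49 for the cytosolic genes and between 0.38 and 0.46 for the mitochondrial genes. In the dorsal cord these ranges were -0.64 to -0.47 and 0.33 to 0.46, and in the ventral cord -0.56 to -0.42 and 0.40 to 0.54. With 1 array left out, the mitochondrial median was 0.39 to 0.46 over both regions and 0.36 to 0.46 in the dorsal cord. With arrays centred on the leading block of probe sets, the mitochondrial median was 0.33 in the dorsal and 0.54 in the ventral cord; that centring put the median of all probe sets at -0.12 in dorsal against ventral astrocytes, against -0.02 without it, and at -0.19 in the interaction, against -0.01, and the cause was not tested. None of the 82 genes changed direction between the sorts. The genes were listed for differing between the sorts on these same arrays, so a kept direction follows largely from the listing. With the probe sets of a gene averaged, 2 moved beyond their spread: Rps25 to -0.28 and Rpl27a to -0.58.

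No member was called in a regional contrast or the interaction under the alternatives run, and the lowest adjusted p reached was 0.23 in astrocytes, 0.48 in non-astrocytes and 0.29 for the interaction. With the replicate block no member was called either, while of all probe sets 108 were called in place of 97 in astrocytes, 0 in place of 14 in non-astrocytes and 12 in place of 18 for the interaction. In the other pairs of groups same-numbered arrays correlated at 0.04 to 0.14 and those of other numbers at -0.13 to 0.06. Within a pair of groups these ranges overlapped only for dorsal astrocytes with dorsal non-astrocytes. For ventral astrocytes with ventral non-astrocytes they were 0.09 to 0.12 and -0.10 to -0.02. The labels do not say what a shared number marks. Counts over all probe sets ranged from 27 to 113 in astrocytes, from 0 to 43 in non-astrocytes and from 2 to 18 for the interaction. With the leading block tested too they were 46, 0 and 3.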

Other observations

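Dim probe sets of 3 cytosolic genes gave the lowest p-values of any member probe set between dorsal and ventral astrocytes, and they were singled out after their values were seen. A pair of Rpl27a probe sets were higher in dorsal astrocytes by 0.78 and 0.76, and the first stood at 9.34, 8.90 and 8.82 in dorsal and 8.51, 8.69 and 7.51 in ventral astrocytes. A probe set of Rps12 was higher by 0.65, at 8.47, 8.41 and 8.79 in dorsal and 7.67, 7.60 and 8.44 in ventral astrocytes, and one of Rpl12 by 0.51, at 7.00, 6.66 and 6.55 in dorsal and 6.56, 6.06 and 6.05 in ventral astrocytes. None passed the adjustment in limma (adjusted p = 0.25 to 0.28), and the brightest probe sets of these genes differed by 0.12 (Rpl27a), 0.02 (Rps12) and -0.02 (Rpl12). Of the 169 cytosolic probe sets 8 had an unadjusted p under 0.05 in this contrast, all higher in dorsal astrocytes, while 10.4% of all probe sets had one in either direction.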
